A study of Mus musculus with 6 samples.

Results

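The genes described here are 40 mouse genes that copy DNA or supply its building blocks, measured in CD11b-selected brain cells of MRL/lpr and MRL/mpj mice. They were chosen by symbol, and each symbol matched 1 row of the deposited count matrix, giving 40 of 55401 rows. RNA-seq libraries came from untreated mice aged 6 weeks, with 3 libraries of the strain MRL/lpr and 3 of MRL/mpj. The lpr mutation carried by MRL/lpr mice hits Fas, a death receptor that limits lymphocyte numbers, and MRL/mpj mice share the MRL background without it. Both groups were prepared alike, with brain cells separated on Percoll and selected on magnetic beads for CD11b, an integrin subunit found on microglia and other myeloid cells. The labels call the cells microglia. The labels do not say that the libraries of a strain came from separate mice. The study's legend for this experiment counts mice, and whether a library is 1 mouse or a pool is not stated there. The p-values measure the spread between these libraries.

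A cell copies its genome in S phase, in steps that need different proteins. In G1 the origin recognition complex, Cdc6 and Cdt1 load rings of Mcm2 to Mcm7 on DNA, a step called licensing, and Gmnn blocks Cdt1 once S phase has begun. Cdc45 and the GINS complex turn the rings into running helicases, and the clamp Pcna, its loader, the polymerases and the ligase build the new strands from nucleotides made by enzymes such as ribonucleotide reductase. Many of these genes are controlled by E2F factors. Microglia of the healthy adult brain divide slowly, and cells at rest keep low levels of the genes that are used in S phase.

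Of the 40 genes, 17 were higher in the MRL/lpr libraries, 1 was lower and 22 were not called (edgeR's quasi-likelihood test, adjusted p under 0.05 by the Benjamini-Hochberg method over 19554 genes). Over all genes tested, 11.1% were called higher and 9.06% lower, against 42.5% of the 40 genes called higher. The rises were uneven and mostly modest. The median log2 fold change of the 40 genes was 0.36, where positive means higher in MRL/lpr, beside -0.01 over all genes tested, and single genes ran from -3.41 to 1.76. A value given beside an SE is a log2 fold change with its standard error. By the study's rule, which adds a log2 fold change of at least 1, 7 genes were up and 1 was down. Of the 19554 genes tested, 914 (4.67%) were up and 716 down by that rule. All MRL/lpr libraries lay above all MRL/mpj libraries in 24 of the 40 genes, beside 19.6% of all genes tested. Summed over the 40 genes, the level was 757, 756 and 782 CPM (counts divided by the library's total in units of 1000000 after TMM scaling) in the MRL/lpr libraries and 611, 626 and 618 in the MRL/mpj libraries, 1.24 times higher in MRL/lpr.

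Leaving out 1 library changed how many genes were called. The count of higher genes was 11 without MRL/mpj replicate 1, 10 without MRL/mpj replicate 2 and 10 without MRL/mpj replicate 3, and it was 13, 14 and 18 without MRL/lpr replicates 1, 2 and 3. The share of all genes called higher ran from 7.95% to 11.6% in the same fits. With scaling by library size only, 12 of the 40 genes were higher and 1 lower, and the calls over all genes turned to 1634 higher and 2790 lower, from 2178 and 1772. Tk1, Rrm2, Tyms, Mcm10, Gmnn, Uhrf1 and Mcm5 kept their call in each of the 17 alternatives that tested a gene against no change. Of the 40 genes, 18 were called by none of these tests.

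**Figure D1:**
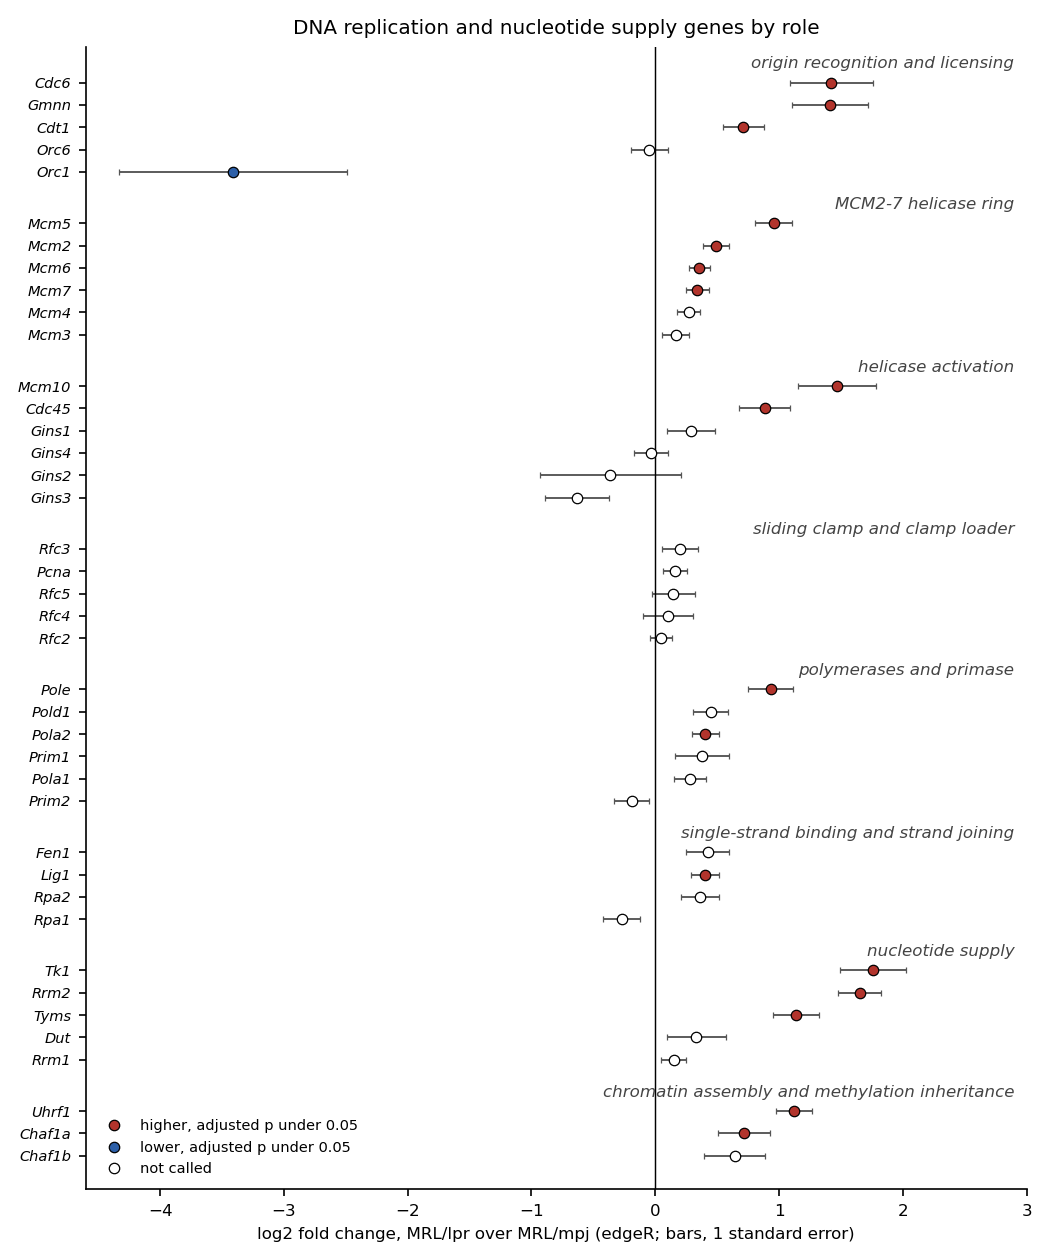
Log2 fold change of each of the 40 genes (horizontal axis, MRL/lpr over MRL/mpj) in blocks by role, with 1 standard error; filled points passed the test. The 5 genes of the clamp and its loader lie within 0.05 to 0.20 and none is filled (Rfc2 and Rfc4 were negative with scaling by library size only), while Tk1 and Rrm2 reach 1.76 and 1.65.

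Levels of the 40 genes ran from 0 CPM (Orc1) to 102 CPM (Pcna) in a library and were not compared with those of all genes. Totals ran from 45481609 to 49846634 counts per library, and the median gene of the 40 had 11.5 to 12.7 CPM in MRL/lpr and 8.24 to 9.25 CPM in MRL/mpj. Counts piled up at multiples of 4, with 1138 to 1288 genes at 4 counts and 320 to 415 at 3 counts in a library, and how many counts a read pair gave is not stated in the sources used here. Transcripts of the mitochondrial genome made up 3.06% to 3.49% of an MRL/lpr library and 5.84% to 6.38% of an MRL/mpj library, and the gene CT010467.1 took 6.38% in MRL/lpr replicate 3 against 0.169% to 0.458% elsewhere. MRL/lpr replicate 3 held the highest value in 15 of the 40 genes. Xist, the RNA of the inactive X chromosome, had 8886 to 11319 counts in MRL/lpr and 27 to 38 in MRL/mpj, so a difference in sex and the difference in strain cannot be told apart. The study's methods name females of both strains, which the low Xist counts of the MRL/mpj libraries go against, and the labels give no sex. Fas had 461, 282 and 298 counts in MRL/lpr and 426, 432 and 362 in MRL/mpj, a count that does not separate mutant from intact transcripts.

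The microglial label was checked against markers. Beside the marker calls, 11.1% of all genes tested were called higher and 9.06% lower. The 8 microglia markers summed to between 21510 and 24030 CPM in MRL/lpr and between 23810 and 24530 CPM in MRL/mpj, with none called higher and 1 lower, and Csf1r, the most abundant, had 9341 to 12350 CPM in MRL/lpr and 9704 to 10090 in MRL/mpj. Markers of other cells that may divide also moved. The 8 markers of T and NK cells summed to between 20.8 and 26.9 CPM in MRL/lpr and between 5.56 and 6.07 CPM in MRL/mpj, with 6 of 8 higher. The 9 markers of B and plasma cells summed to between 24.5 and 28.3 CPM against between 9.99 and 11.98, with 2 of 7 tested higher and 1 at 0 in every library. Most of that difference was Jchain, the most abundant, with 13.8, 16.25 and 16.65 CPM against 1.44, 1.44 and 0.807 CPM. Cd79b ran the other way, at 6.30, 5.80 and 7.80 CPM against 8.04, 8.88 and 7.61 CPM, and was not called. Of the 7 tested, 5 had a positive log2 fold change. Neutrophil and precursor markers summed to between 704 and 832 CPM against between 563 and 629, with 3 of 8 higher, and erythroid markers to between 576 and 964 against between 502 and 551, with 1 of 4 tested higher. Of the 7 monocyte markers 3 were higher and 1 lower, with sums of 91.6 to 106 CPM against 97.0 to 108. Endothelial and pericyte markers summed to between 1497 and 1716 CPM against between 1431 and 1470, with 1 of 7 higher and 1 lower. The 9 markers of oligodendrocyte precursors and neural progenitors ran the other way, at 9.21 to 13.5 CPM against 22.03 to 24.7, with 2 of 5 tested lower. By list, the most abundant marker was Lck for T and NK cells (log2 fold change 1.73) and Ngp for neutrophils and their precursors (0.40). For erythroid cells it was Hba-a1 (0.63, not called), for monocytes Chil3 (-1.59) and for endothelium and pericytes Flt1 (0.36). For oligodendrocyte precursors and neural progenitors it was Cspg4 (-1.05). The part of these other cells in the differences of the replication genes was not tested, and in bulk RNA more cells of a type and more RNA per cell cannot be told apart.

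The promoter windows of the genes were searched for letters that E2F factors are known to bind. RefSeq windows on GRCm38.p6, from 250 bases before to 50 after the annotated start, were at hand for 32 of the 40 genes. Gins1, Gins2, Gins4, Mcm4, Gmnn, Pole, Prim2 and Rfc2 had no entry. Any of TTTGGCGC, TTTCGCGC, TTTCCCGC and TTTGCCGC on either strand stood in the windows of 13 of the 32 genes, beside 2.6% of 27025 genes in the table. The match was present in 7 of 15 genes called higher (Cdc6, Cdt1, Lig1, Mcm5, Mcm6, Mcm7 and Uhrf1), in 5 of 16 not called (Gins3, Mcm3, Pola1, Pold1 and Rfc3) and in Orc1, the gene called lower. TTTGAA, the letters of the CHR element found at many genes of mitosis, stood in 4 of the 32 (Cdc45, Fen1, Gins3 and Mcm2), beside 20.2% of all genes, and CCAAT in 20 of the 32, beside 41.1%. A list of mitosis genes had the opposite makeup for E2F-type letters, in 1 of 21 genes, and TTTGAA, in 16 of 21. CCAAT was frequent there too, in 18 of 21.

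Upstream stretches are shown for the 6 genes with a window that kept their call in those 17 alternatives, and for Mcm6. Mcm6 was added as a ring subunit called higher whose window holds E2F-type letters, so its matches were a condition of showing it. Mcm7, chosen the same way, and Pcna had fewer than 150 bases free of exons and are not shown. Mcm2, called higher without such letters, was not eligible. E2F-type letters and CCAAT, on either strand (ATTGG on the other), are in capitals. Each is written 5′ to 3′ on the gene's own strand, with the GRCm38.p6 position, and leaves out bases that GENCODE M21 places in an exon. The stretch of Uhrf1 precedes the second of its annotated starts and lies inside the gene, in the first intron of its longer transcripts.

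Mcm5 (chr8:75109309-75109508, + strand): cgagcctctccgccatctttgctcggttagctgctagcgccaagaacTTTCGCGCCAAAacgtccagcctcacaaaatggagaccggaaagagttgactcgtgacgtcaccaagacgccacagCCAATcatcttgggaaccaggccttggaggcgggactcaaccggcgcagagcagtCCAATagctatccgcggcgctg

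Mcm6 (chr1:128359706-128359905, - strand): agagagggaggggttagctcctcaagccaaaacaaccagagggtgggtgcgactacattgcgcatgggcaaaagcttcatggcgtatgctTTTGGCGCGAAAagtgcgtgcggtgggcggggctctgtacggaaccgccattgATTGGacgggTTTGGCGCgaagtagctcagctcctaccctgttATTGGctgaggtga

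Uhrf1 (chr17:56304113-56304312, + strand): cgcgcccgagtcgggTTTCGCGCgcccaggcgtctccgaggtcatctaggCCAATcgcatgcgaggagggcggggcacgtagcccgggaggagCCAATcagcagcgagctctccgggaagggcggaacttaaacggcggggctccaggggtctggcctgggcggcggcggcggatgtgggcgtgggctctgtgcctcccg

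Rrm2 (chr12:24708041-24708240, + strand): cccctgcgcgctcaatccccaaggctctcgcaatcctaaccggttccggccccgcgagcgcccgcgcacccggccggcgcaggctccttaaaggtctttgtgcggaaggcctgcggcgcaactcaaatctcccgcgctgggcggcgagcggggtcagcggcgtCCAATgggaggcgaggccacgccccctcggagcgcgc

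Tk1 (chr11:117826093-117826264, - strand): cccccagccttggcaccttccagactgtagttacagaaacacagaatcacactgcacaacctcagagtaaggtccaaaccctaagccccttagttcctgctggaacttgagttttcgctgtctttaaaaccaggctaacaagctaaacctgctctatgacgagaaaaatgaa

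Tyms (chr5:30073626-30073825, - strand): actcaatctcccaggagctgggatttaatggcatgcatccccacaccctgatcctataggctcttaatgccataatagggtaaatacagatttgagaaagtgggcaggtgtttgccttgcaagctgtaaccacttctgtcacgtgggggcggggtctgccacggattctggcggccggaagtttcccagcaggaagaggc

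Mcm10 (chr2:5012792-5012991, - strand): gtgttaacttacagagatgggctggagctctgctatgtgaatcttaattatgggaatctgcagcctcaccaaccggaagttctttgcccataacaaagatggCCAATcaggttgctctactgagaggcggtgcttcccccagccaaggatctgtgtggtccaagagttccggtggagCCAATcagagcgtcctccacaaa

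In Mcm5 and Mcm6 a match on the written strand overlaps 1 on the other strand, which gives a run of 12 capitals, and Mcm6 holds another E2F-type match nearer its start. Rrm2 shows CCAAT only, Mcm10 shows CCAAT at 2 places, and Tk1 and Tyms show none of the searched letters, although both were among the largest rises. Such matches are descriptions of these windows and not measured binding sites.

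Of the enzymes that supply nucleotides, Tk1 and Rrm2 had the largest rises of the 40 genes, and Tyms rose too, while Rrm1 and Dut were not called. Tk1 (chr11:117815526-117826092, - strand), the thymidine kinase that salvages thymidine, had 15.5, 14.1 and 13.3 CPM in the MRL/lpr libraries and 2.98, 6.28 and 3.42 CPM in the MRL/mpj libraries. The groups did not overlap, and MRL/mpj replicate 2 was the highest of its strain. Its log2 fold change was 1.76 (SE 0.27, edgeR adjusted p = 0.00152), a 3.38-fold rise. Gm20708, annotated over the whole of Tk1 on the other strand (10567 bases), had 29 to 389 counts in MRL/lpr and 195 to 248 in MRL/mpj. Afmid, which overlaps Tk1 over 169 bases on that strand, had 323, 554 and 238 counts in MRL/lpr and 134, 154 and 153 in MRL/mpj.

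Rrm2 (chr12:24708241-24714146, + strand), the small subunit of ribonucleotide reductase that is made in S phase, had 10.7, 13.7 and 11.1 CPM in MRL/lpr and 3.83, 3.44 and 4.04 CPM in MRL/mpj. Its log2 fold change of 1.65 (SE 0.17, edgeR adjusted p = 0.00014) had the smallest adjusted p of the 40 genes. Tyms (chr5:30058202-30073617, - strand), thymidylate synthase, had 9.91, 8.99 and 8.81 CPM against 3.35, 4.48 and 4.79 CPM, a log2 fold change of 1.14 (SE 0.19, edgeR adjusted p = 0.00231). In both genes every MRL/lpr library lay above every MRL/mpj library. Rrm1, the large subunit, which is present through the cell cycle, had 41.2, 43.3 and 36.6 CPM against 34.95, 34.5 and 39.8 CPM, and its groups overlapped (log2 fold change 0.15, SE 0.10, edgeR adjusted p = 0.358). Dut, the dUTPase that keeps uracil out of DNA, was not called at 0.33 (SE 0.24, edgeR adjusted p = 0.399).

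The reductase has a second small subunit, Rrm2b, which serves DNA repair and cells that do not divide, and it is no member of the 40 genes. Rrm2b fell by 1.34 on the log2 scale (SE 0.14, edgeR adjusted p = 0.000134), from 20.9, 20.8 and 24.7 CPM in MRL/mpj to 9.21, 7.50 and 9.45 CPM in MRL/lpr. On the FPKM scale, which divides by gene length, the ratio of Rrm2 to Rrm2b was 3.83, 6.06 and 3.86 in the MRL/lpr libraries and 0.596, 0.538 and 0.534 in the MRL/mpj libraries. The order of the small subunits was thus turned round between the strains. The ratio of Rrm2 to Rrm1 was 1.16 ± 0.116 (SD, n = 3) in MRL/lpr and 0.407 ± 0.0215 (SD, n = 3) in MRL/mpj.

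**Figure D2:**
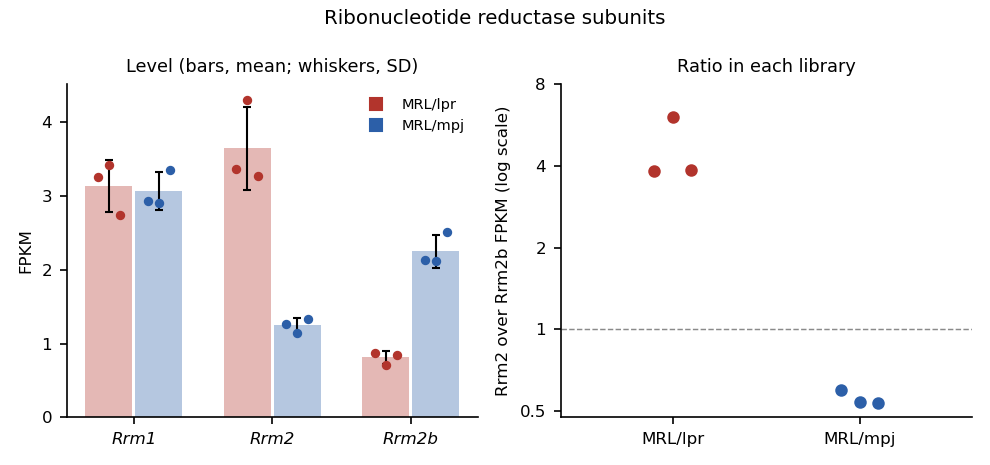
Left, FPKM of the large subunit Rrm1 and the small subunits Rrm2 and Rrm2b in each library (points), with mean and SD (n = 3). Right, the ratio of Rrm2 to Rrm2b on a log scale, 3.83 to 6.06 in MRL/lpr and 0.534 to 0.596 in MRL/mpj.

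Among the licensing genes, Cdc6, Gmnn and Cdt1 rose, while of the origin recognition complex Orc1 was lower and Orc6 was not called. Cdc6 (chr11:98907801-98923940, + strand), the loader of the Mcm rings, had 3.96, 3.95 and 2.27 CPM in MRL/lpr and 1.596, 1.28 and 0.922 CPM in MRL/mpj. MRL/lpr replicate 3 stood below the other 2, and the call (log2 fold change 1.42, SE 0.33, edgeR adjusted p = 0.0150) was lost in 6 of 17 alternatives, among them the fits without MRL/lpr replicate 1 or 2 or MRL/mpj replicate 2 or 3. Gmnn (chr13:24751845-24761923, - strand), geminin, had 2.96, 3.38 and 4.62 CPM against 1.77, 1.28 and 1.06 CPM (1.41, SE 0.31, edgeR adjusted p = 0.00990). Cdt1, the protein that geminin blocks, rose by less, with 12.5, 16.3 and 16.5 CPM against 7.94, 10.6 and 9.19 CPM (0.71, SE 0.16, edgeR adjusted p = 0.0138). Its call was lost without MRL/lpr replicate 2, MRL/mpj replicate 1 or MRL/mpj replicate 3. Licensing factor and its inhibitor were both higher in MRL/lpr.

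Orc1 (chr4:108579423-108614833, + strand), the subunit of the origin recognition complex that comes and goes with the cell cycle, was the only one of the 40 genes called lower. It was also the least abundant, with 4, 6 and 0 counts in MRL/lpr against 44, 29 and 49 counts in MRL/mpj. The log2 fold change was -3.41 (SE 0.92, edgeR adjusted p = 0.0280), and the call was lost in 5 of the 15 alternatives that tested it. It was lost when MRL/lpr replicate 1 or any of the 3 MRL/mpj libraries was left out. Gm12743, a transcript on the other strand that overlaps Orc1 over 22409 bases, had 0, 4 and 0 counts against 19, 0 and 19. Orc6 was not called, with 9.19, 8.33 and 7.87 CPM against 9.24, 9.04 and 7.96 CPM (log2 fold change -0.05, SE 0.15).

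**Figure D3:**
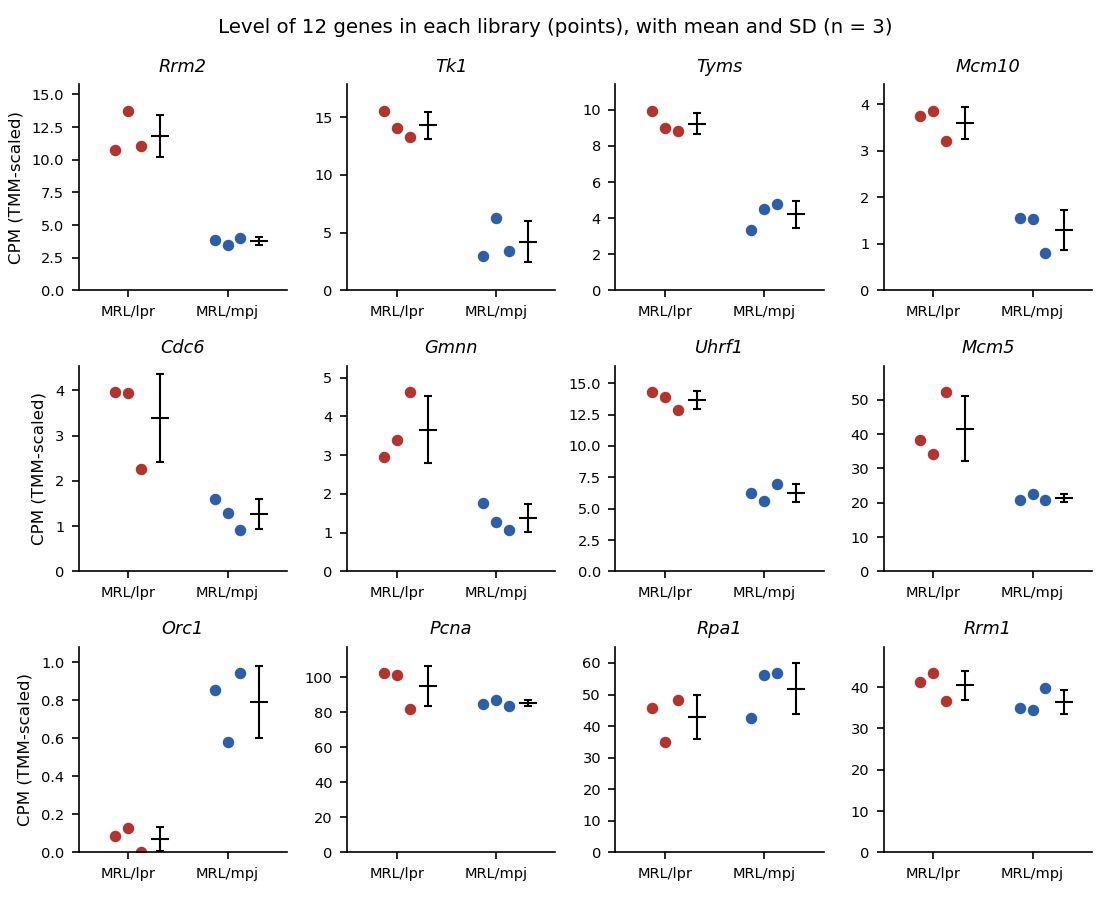
CPM of 12 of the genes in each library (points), with mean and SD (n = 3), each panel on its own axis from 0. The upper 8 genes show MRL/lpr above MRL/mpj without overlap, Orc1 shows the reverse, and Pcna, Rpa1 and Rrm1 overlap.

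The 6 subunits of the Mcm ring stand in equal number in the complex, yet their transcripts differed between the strains by different amounts. Mcm5 (chr8:75109569-75128439, + strand) had 38.2, 34.1 and 52.1 CPM in MRL/lpr and 20.8, 22.6 and 20.7 CPM in MRL/mpj, with MRL/lpr replicate 3 the highest. Its log2 fold change was 0.96 (SE 0.15, edgeR adjusted p = 0.00176), or 1.94-fold. Mcm2 followed with 35.03, 34.5 and 37.3 CPM against 28.5, 24.3 and 23.0 CPM (0.49, SE 0.10, edgeR adjusted p = 0.00887). Mcm6 (0.36, SE 0.09) and Mcm7 (0.34, SE 0.09) were called with smaller differences, which lost their call in 6 and 9 of 17 alternatives. Mcm6 lost it without MRL/mpj replicate 1 or 2, and Mcm7 without any 1 library except MRL/lpr replicate 3. Mcm4 at 0.27 (SE 0.09, edgeR adjusted p = 0.0762) and Mcm3 at 0.16 (SE 0.11, edgeR adjusted p = 0.347) were not called, though Mcm4 was without MRL/lpr replicate 3. Every subunit had a positive log2 fold change. Mcm3, the most abundant of the 6 by FPKM, overlapped between the groups, with 49.6, 53.6 and 53.5 CPM against 54.1, 43.5 and 42.4 CPM. As a group the ring summed to 215, 214 and 237 CPM against 177, 164 and 161 CPM.

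Of the factors that start the helicase, Mcm10 and Cdc45 were called higher, and no subunit of the GINS complex was called. Mcm10 (chr2:4989714-5012791, - strand), needed for the rings to begin unwinding, had 3.74, 3.85 and 3.21 CPM in MRL/lpr and 1.56, 1.54 and 0.807 CPM in MRL/mpj (log2 fold change 1.47, SE 0.31, edgeR adjusted p = 0.00933). Cdc45, a part of the running helicase, had 4.83, 4.76 and 4.79 CPM against 2.94, 2.56 and 2.29 CPM (0.88, SE 0.21, edgeR adjusted p = 0.0153). Both were without overlap between the strains, and the call of Cdc45 was lost without MRL/mpj replicate 2 or 3. The 4 GINS subunits, which join the same helicase, ranged from -0.63 to 0.29 and none was called. Gins3 had 3.04, 3.31 and 2.06 CPM in MRL/lpr and 4.53, 4.96 and 3.56 CPM in MRL/mpj (-0.63, SE 0.26, edgeR adjusted p = 0.125), with all MRL/lpr libraries below. Gins2 varied widely within both strains, at 4.34, 11.3 and 2.75 CPM against 5.27, 7.18 and 11.3 CPM (-0.36, SE 0.57). Gins1 was at 0.29 (SE 0.19), with all MRL/lpr libraries above. Gins4 was at -0.03 (SE 0.14) with overlapping groups, and was positive without MRL/lpr replicate 1.

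None of the 5 genes of the sliding clamp and its loader was called. Pcna, the clamp and the most abundant of the 40 genes by FPKM, had 102, 101 and 82.1 CPM in MRL/lpr and 84.9, 87.0 and 83.7 CPM in MRL/mpj. MRL/lpr replicate 3 lay below all 3 MRL/mpj libraries, and the log2 fold change was 0.16 (SE 0.09, edgeR adjusted p = 0.290). Without that library the value was 0.26 and Pcna was called. Rfc3, Rfc5, Rfc4 and Rfc2, subunits of the loader, were at 0.20, 0.14, 0.10 and 0.05, and Rfc2 and Rfc4 turned to -0.08 and -0.02 with scaling by library size only. Lat2, a gene on the other strand that overlaps Rfc2 over 1784 bases, had 3670 to 4306 counts in MRL/lpr and 1563 to 2133 in MRL/mpj.

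Among the polymerases, Pole stood out. The catalytic subunit of the leading-strand polymerase, it had 7.85, 10.5 and 11.4 CPM in MRL/lpr and 5.001, 5.001 and 5.55 CPM in MRL/mpj (log2 fold change 0.93, SE 0.18, edgeR adjusted p = 0.00602). Pola2, a subunit of the polymerase that works with primase, rose to 19.3, 18.2 and 21.1 CPM from 15.1, 14.6 and 14.6 CPM (0.40, SE 0.11, edgeR adjusted p = 0.0265), a call lost in 9 of 17 alternatives, also without any 1 library except MRL/lpr replicate 2. Its partners Pola1 (0.28, SE 0.13), Prim1 (0.38, SE 0.22) and Prim2 (-0.19, SE 0.14) were not called. Pold1, the lagging-strand polymerase, had 28.6, 24.7 and 36.5 CPM against 20.9, 22.3 and 22.5 CPM and was not called (0.45, SE 0.14, edgeR adjusted p = 0.0516), although 6 of 17 alternatives called it, 1 of them without MRL/lpr replicate 2.

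Of the proteins that hold single strands and join fragments, Lig1 alone was called. Lig1, the ligase that seals fragments of the lagging strand, had 32.3, 27.3 and 29.7 CPM against 23.8, 23.9 and 19.9 CPM (log2 fold change 0.40, SE 0.11, edgeR adjusted p = 0.0328). That call was lost in 8 of 17 alternatives, among them the fits without MRL/lpr replicate 1 or any 1 MRL/mpj library. Fen1, the flap nuclease, was at 0.42 (SE 0.17) and Rpa2, of the single-strand binding complex, at 0.36 (SE 0.15), both without overlap but not called. Rpa1, the large subunit of that complex, had 45.7, 34.99 and 48.2 CPM against 42.6, 56.2 and 56.7 CPM (-0.27, SE 0.15, edgeR adjusted p = 0.256). The 2 RPA subunits thus had opposite signs, neither past the threshold.

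Chromatin has to be rebuilt behind the fork, and all 3 genes for this had separated groups. Uhrf1 (chr17:56303321-56323486, + strand), which brings the maintenance methyltransferase to newly copied DNA, had 14.3, 13.9 and 12.8 CPM in MRL/lpr and 6.25, 5.58 and 6.98 CPM in MRL/mpj. The log2 fold change was 1.12 (SE 0.14, edgeR adjusted p = 0.000543), or 2.18-fold. Chaf1a, of the complex that places histones on new DNA, had 9.83, 11.1 and 14.4 CPM against 7.72, 5.46 and 8.26 CPM (0.72, SE 0.21, edgeR adjusted p = 0.0372), a call lost in 8 of 17 alternatives, also without any 1 library except MRL/lpr replicate 1. Chaf1b of the same complex was at 0.64 (SE 0.24, edgeR adjusted p = 0.103) and was called without MRL/lpr replicate 3.

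**Figure D4:**
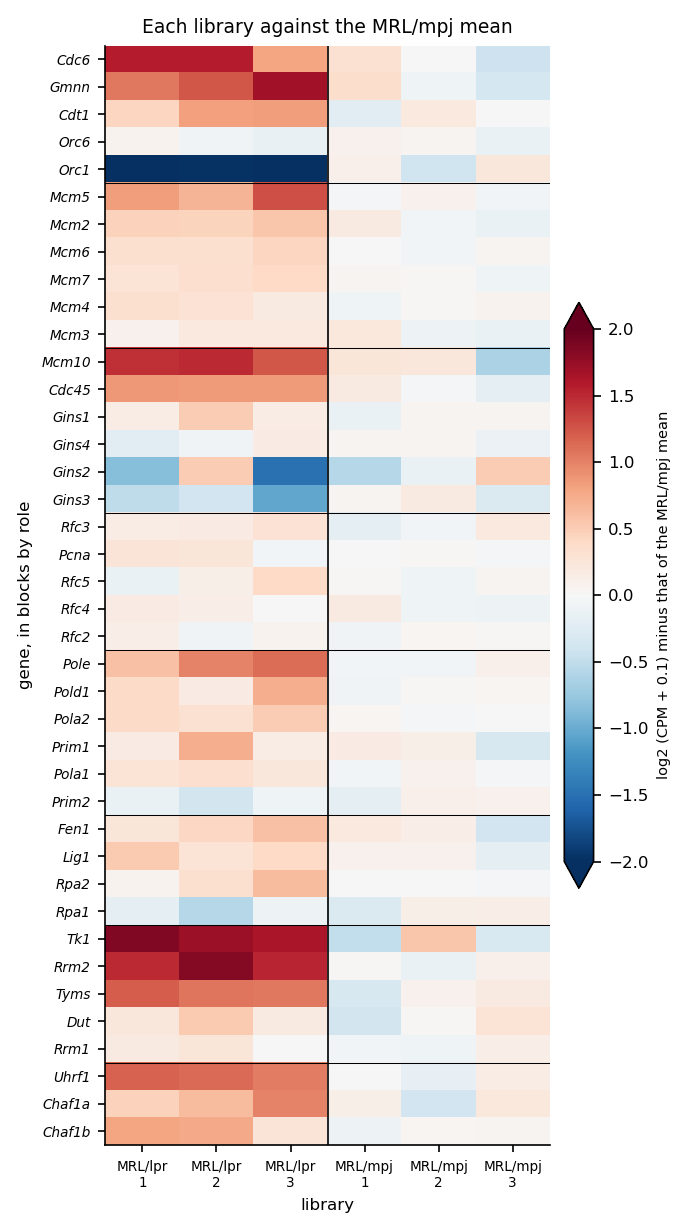
Log2 difference of each library (columns) from the MRL/mpj mean for the 40 genes (rows, in blocks by role), in CPM with 0.1 added. Tk1, Rrm2, Tyms, Uhrf1 and Mcm10 are red in all 3 MRL/lpr libraries, Orc1 is blue in all 3, and Gins2 varies within both strains.

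The genes with the larger differences were mostly those with little transcript. Ranked by mean FPKM over the 6 libraries, the 20 less abundant genes (0.112 to 2.26 FPKM) held 10 of the higher calls and 6 of the 7 that passed the study's rule, with a median log2 fold change of 0.52. The 20 more abundant genes (2.45 to 33.5 FPKM) held 7 higher calls and 1 past the rule, Rrm2, with a median of 0.31. Pcna, Mcm3, Gins4, Rpa1 and Rfc2, the 5 most abundant, were all uncalled, with FPKM means over all libraries from 33.5 down to 7.35.

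Other genes of the pathway, from lists that are no part of the 40, were read from the same fit. That fit called 11.1% of all genes tested higher and 9.06% lower. Of 40 other replication factors 11 were higher and none lower, with a median log2 fold change of 0.10. The count of higher genes was 6 with scaling by library size only and 7 without MRL/mpj replicate 1. Timeless (1.01, SE 0.12) and Clspn (1.71, SE 0.23), both of which protect the fork, rose, as did Dna2 (1.20, SE 0.19), a nuclease of fragment processing, and Asf1b (1.37, SE 0.23), a histone carrier. Of 20 other genes of nucleotide synthesis 1 was higher and 4 were lower, with a median of -0.05, and 2 were lower without MRL/lpr replicate 1 or MRL/mpj replicate 2. Besides Rrm2b, these were Ctps, CTP synthase, which fell by 1.11 (SE 0.10, edgeR adjusted p = 6.68e-05), Dctd, dCMP deaminase, which fell by 1.20 (SE 0.30), and Ppat, the first enzyme of purine synthesis, which fell by 0.52 (SE 0.13). Shmt1, which feeds one-carbon units to thymidylate, was the gene that rose (0.54, SE 0.14), a call lost with scaling by library size only and without MRL/lpr replicate 1 or 2 or MRL/mpj replicate 1 or 2.

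The regulators of entry into S phase included both drivers and brakes. Their calls stand beside 11.1% of all genes tested called higher and 9.06% called lower. Of 20 cyclin, kinase and E2F genes 7 were higher and none lower, but 5 were higher and 1 lower with scaling by library size only, and 4 were higher without MRL/mpj replicate 1. Among the 7 were E2f7 at 2.05 (SE 0.31), Ccna2 at 1.35 (SE 0.21) and E2f8 at 1.11 (SE 0.24). E2f1 at 0.88 (SE 0.23) and E2f2 at 0.73 (SE 0.14) were also among them. E2f1 and E2f2 are activators, and E2f7 and E2f8 are repressors that act later in the cycle. E2f3, also an activator, ran the other way, with all MRL/lpr libraries below. It had 38.8, 36.8 and 36.4 CPM in MRL/lpr and 41.9, 45.1 and 48.5 CPM in MRL/mpj. E2f3 was not called (-0.28, SE 0.09, edgeR adjusted p = 0.0554). Of 13 brakes 3 were higher and none lower. Cdkn1a, the inhibitor p21, had 417, 365 and 372 CPM in MRL/lpr and 149, 145 and 155 CPM in MRL/mpj (1.36, SE 0.07, edgeR adjusted p = 2.37e-06), Cdkn2c was at 1.09 (SE 0.16) and Rbl1 at 0.59 (SE 0.12), while Cdkn2d was not called (0.77, SE 0.35, edgeR adjusted p = 0.180).

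The genes of mitosis lay further from the rest. Over all genes tested, 11.1% were called higher and 4.67% were up by the study's rule. Of 25 mitosis genes 25 were higher, 24 of them past the study's rule, with a median log2 fold change of 1.79 against 0.36 for the 40 replication genes. The count of higher genes ran from 22 to 25 when 1 library was left out. Mki67 had 87.9, 91.3 and 87.2 CPM in MRL/lpr and 19.5, 20.5 and 19.6 CPM in MRL/mpj (2.16, SE 0.08), and Top2a was at 2.22 (SE 0.10), Cenpf at 1.86 (SE 0.12) and Bub1b at 2.16 (SE 0.15). Summed over the list the level was 367 to 415 CPM in MRL/lpr and 105 to 110 CPM in MRL/mpj, 3.68-fold, beside 1.24-fold for the replication genes. In MRL/mpj the replication genes were thus far above the mitosis genes in summed CPM, and the gap was narrower in MRL/lpr. The difference between the lists was not tested.

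**Figure D5:**
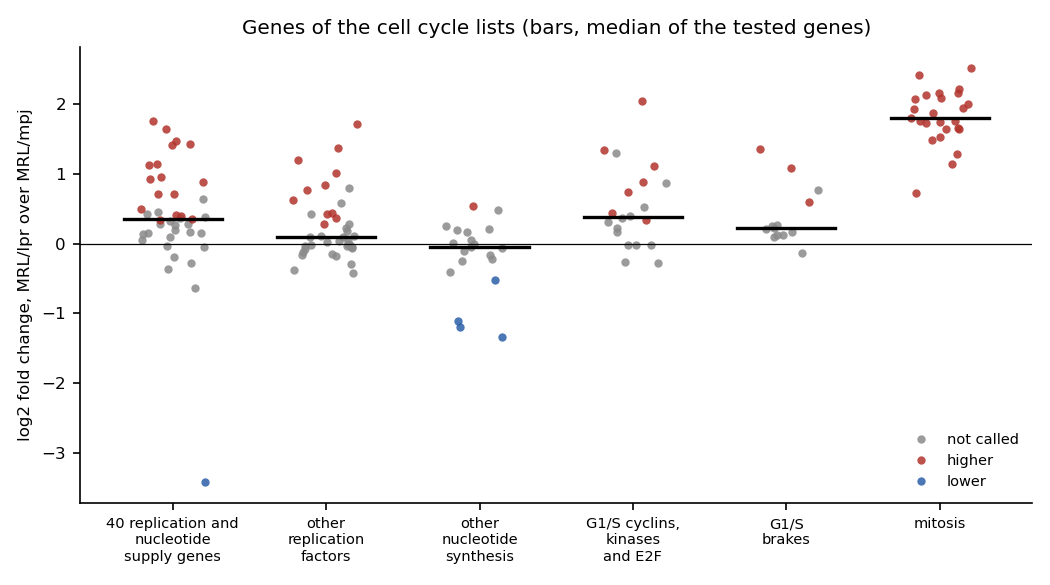
Log2 fold change (vertical axis, MRL/lpr over MRL/mpj) of the tested genes in 6 lists, coloured by call, with the median as a bar. The mitosis genes lie between 0.73 and 2.52 and are all higher, the 40 replication genes centre on 0.36, and other nucleotide synthesis centres on -0.05 with 4 genes lower.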

How the data were processed

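The authors trimmed reads with Cutadapt and aligned them with HISAT2, and the study's methods name DESeq2. The submitters' processing notes list cutadapt 1.9.3, HISAT2 2.0.4, Cufflinks, Cuffdiff 2.2.1 and GRCm38, and the counting tool is not given in the sources used here. The labels describe ribosomal RNA removal and a stranded kit, the methods mRNA purification. Raw counts per gene, as whole numbers, and FPKM values were deposited by the authors.

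Here the deposited counts were tested with edgeR 4.0.16 in R 4.3.3 (filterByExpr, TMM, robust quasi-likelihood fit, no covariate, Benjamini-Hochberg). With 3 libraries against 3, no exact permutation p can be under 0.1. FPKM served to compare genes and, with limma 3.58.1, as an alternative. Symbols and positions came from GENCODE M21 (55141 of 55401 identifiers, the rest holding 0.0163% to 0.0370% of counts). By that annotation 20 of the 40 genes overlap another gene, 9 of them on the same strand.

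The genes and lists were chosen with earlier results of these data known. All 40 are named, with the 4 smallest adjusted p of each other pathway list and each gene lower where fewer than 4 were. Also named are Mki67, Top2a, E2f1, Cdkn1a, Ccna2, Fas and the most abundant marker of each cell list. Some genes were chosen after their values were seen (Shmt1, E2f3, CT010467.1, Xist, Cd79b and overlapping genes). Alternatives were DESeq2 1.42.0, other scalings, filters and dispersions, glmTreat, a replicate block, counts divided by 4, FPKM with limma, and each library left out. The steps were tested on simulated data. Replicates of a strain differed by more than counting noise, and unevenly. The median squared difference over that expected from counting was 9.25 between MRL/lpr replicates 1 and 2. It was 22.97 and 23.95 for the pairs with MRL/lpr replicate 3, and 10.5 to 12.0 between MRL/mpj replicates.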

Additional observations from a re-analysis of the deposited data

How the results depend on the processing

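Scaling by library size only moved the median log2 fold change of all genes from -0.01 to -0.13 and that of the 40 genes from 0.36 to 0.23. The distance between them was 0.37 and 0.36. It called 2790 genes lower in all, 6 other replication factors higher, 0 other nucleotide genes higher and 1 cyclin or E2F gene lower. Requiring 50 counts in 3 libraries, counts divided by 4 and the replicate block each left 0 of the 40 genes lower, and 0 down by the study's rule, since Orc1 was then filtered out or lost its call. Testing against a log2 fold change of 1 with glmTreat left 1 of the 40 genes up and 0 down, beside 379 up and 237 down over all genes. Limma on log2(FPKM + 0.1) called 9 of the 40 genes higher, 3 of them past the rule, with a median of 0.22. On log2(FPKM + 1), which shrinks low genes, it called 9, with 1 up and 0 down by the rule and a median of 0.18, and 351 up and 263 down over all genes. Rfc2 and Rfc4 turned negative under these 3 settings, at -0.078, -0.075 and -0.067 for Rfc2 and -0.020, -0.024 and -0.018 for Rfc4.

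Over the 6 fits that left out 1 library, the genes called higher ran from 10 to 18, those lower from 0 to 1, those down by the rule from 0 to 1, and all genes lower from 1177 (without MRL/mpj replicate 1) to 1971. Other replication factors higher ran from 7 (without MRL/mpj replicate 1) to 12, other nucleotide genes from 0 to 1 higher and from 2 (without MRL/lpr replicate 1 or MRL/mpj replicate 2) to 4 lower, and cyclin and E2F genes higher from 4 (without MRL/mpj replicate 1) to 8. Gins4 ran from -0.14 to 0.050, positive without MRL/lpr replicate 1, and Orc6 from -0.11 to 0.0061, positive without MRL/lpr replicate 3. The cause was not tested, beyond the smaller number of samples.

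Same-numbered libraries of the strains did not deviate together (correlations of -0.06, -0.04 and -0.08). With 3 libraries of each strain this cannot exclude that equal numbers pair them, and the labels do not say. The replicate block called 13 of the 40 genes higher. Of 678 values of single genes under an alternative, 601 kept their direction and side of the threshold, 60 lost a call, 9 gained one and 8 changed sign. Orc1 had at most 6 counts in any MRL/lpr library.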
